A study of Homo sapiens with 2 samples.

Results

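Translation initiation factors (EIF symbols) and elongation factors (EEF symbols) assemble ribosomes on mRNA and move them along it. Their genes were examined for KDM1B binding. The genes were taken by symbol: every protein-coding gene starting with EIF or EEF, without the EIF2AK kinases. This gave 67 genes of the 20033 protein-coding genes on chromosomes 1 to 22, X and Y in the RefSeq table used. The choice of these genes was made with earlier results of these data known. By symbol, 11 belonged to the EIF2 group, 14 to EIF3, 16 to EIF4 and 15 to EEF, and the remaining 11 were EIF1, EIF5 and EIF6 genes. The EEF genes include EEF1AKMT4-ECE2, a read-through gene that begins at the same start as EEF1AKMT4, and the enzymes that modify elongation factors.

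KDM1B (LSD2) is a flavin-dependent demethylase of histone H3 lysine 4, described both at promoters and inside transcribed genes. ChIP-seq was used to map it in the MDA-MB-231 cell line, which was derived from a triple-negative breast cancer. The data were 1 anti-FLAG ChIP library and 1 input library, both from cells that stably carry KDM1B with a 3xFLAG tag from the retroviral vector pOZ. The precipitated protein was therefore the introduced, tagged one, and cells without the tag were not analysed here. Each group was 1 library, so there is no replicate error for any value and no comparison has a test. The peak list holds no read counts, so depth is unknown, and it measures no RNA, so markers of the cell line could not be looked at. The peaks are those the authors listed for ChIP over input, on hg38.

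In initiation, eIF2 brings the initiator tRNA to the small ribosomal subunit, and eIF2B reloads eIF2 with GTP. eIF3 is a large scaffold on that subunit, and the eIF4 factors bind the mRNA cap and unwind the leader. In elongation, eEF1A delivers aminoacyl-tRNAs and eEF2 moves the ribosome forward. These factors are needed in every growing cell, and several are well known for their part in growth control in cancer, such as the cap-binding protein eIF4E.

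Most translation factor genes carried KDM1B peaks, and in many of them the peaks lay over much of the gene. Counting midpoints inside the gene and in 5 kb flanks, a peak was found in 62 of the 67 genes, or 92.5%, against 67.3% of all protein-coding genes. The exact Clopper-Pearson 95% interval of that share was 83.4 to 97.5%, for counting error only. It takes the genes as independent draws, which genes fixed by symbol are not, and it is no test against 67.3%. The genes held a median of 5 peaks (range 0 to 33), against a median of 2 over all protein-coding genes. Peaks covered a median of 23.8% of the gene span (quartiles 7.14 and 58.5%), against 1.49% (quartiles 0 and 13.5%) over all protein-coding genes. At least 1 base of the span lay under a peak in 59 of the 67 genes, against 60.8% of all protein-coding genes. In 18 of the 67 genes, or 26.9%, peaks covered 50% or more of the span, against 7.26% of all protein-coding genes. The genes were not long, with a median span of 18.3 kb against 24.1 kb over all protein-coding genes. In all, 452 distinct peaks were counted, of which 344 had their midpoint inside a translation factor gene and 108 in the flanks. Of the flank peaks, 50 lay inside another protein-coding gene.

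**Figure D1:**
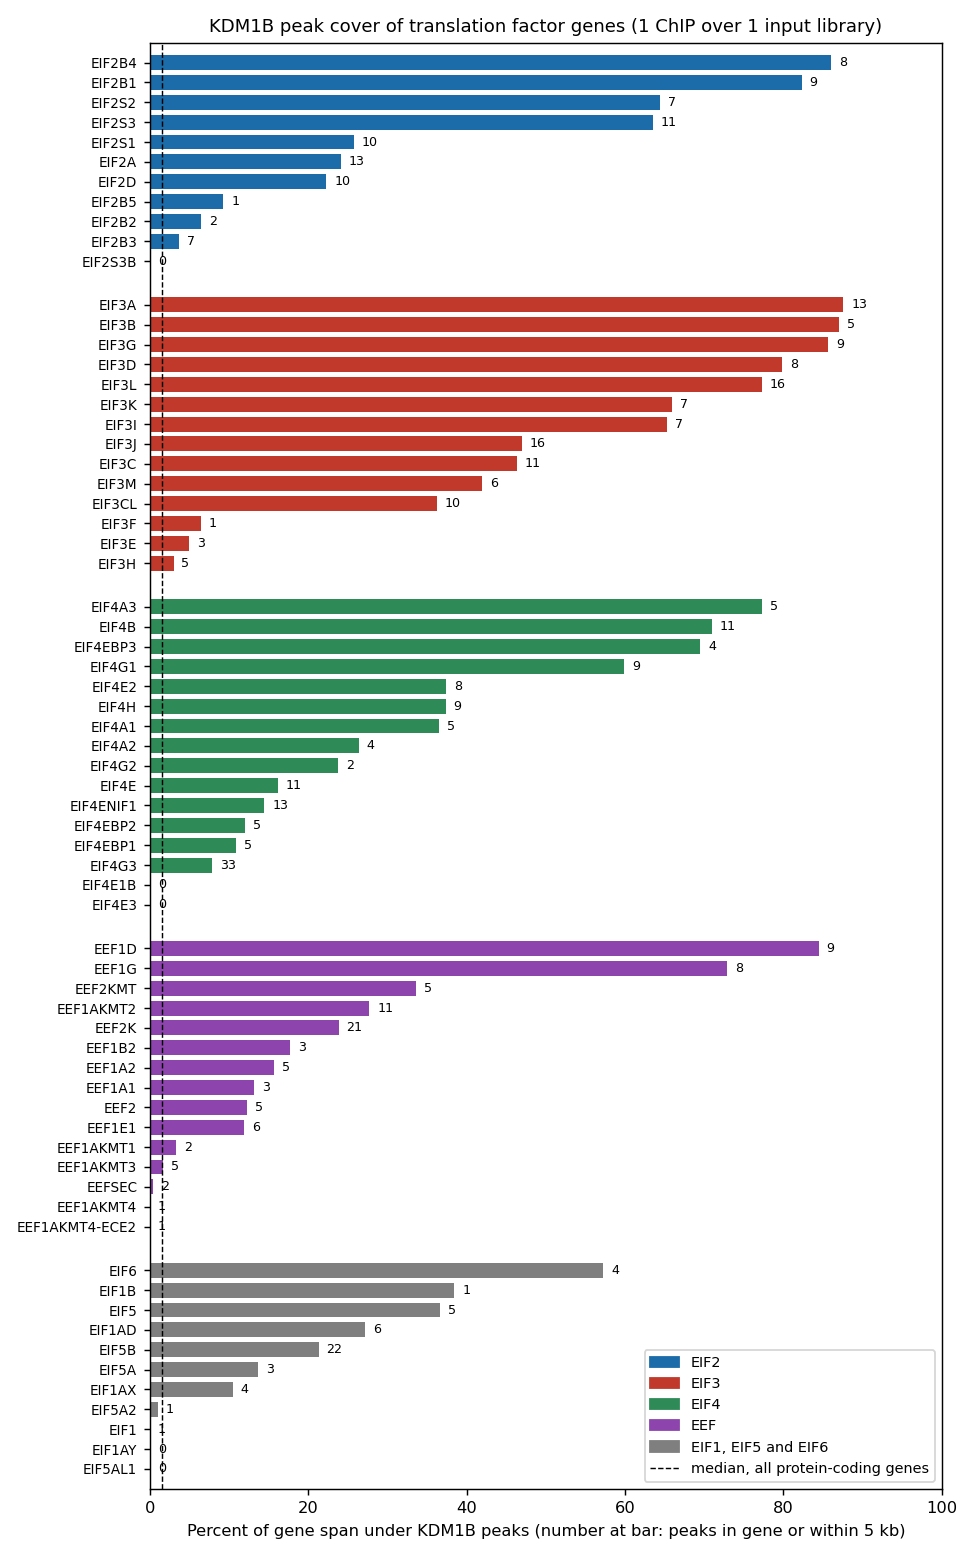
Bars give the percent of each gene span under KDM1B peaks for the 67 genes, by group and in falling order, and the number at each bar is the count of peaks in the gene or within 5 kb. The dashed line is the median of all protein-coding genes, 1.49%; EIF3A has the longest bar at 87.5%, and 5 genes hold no peak.

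The higher cover was seen at each gene length looked at, except in the share of long genes with 50% cover. Among genes under 10 kb, 17 of 18 translation factor genes (94.4%) had a peak against 50.3% of all protein-coding genes of that length. Median cover was 15.7% against 0%, and 4 of the 18 (22.2%) were covered over 50% or more against 8.21%. Among genes of 10 to 50 kb, 38 of 41 (92.7%) had a peak against 71.7%, median cover was 36.3% against 4.54%, and 14 (34.1%) were covered over 50% or more against 10.1%. Among genes of 50 kb or longer, 7 of 8 (87.5%) had a peak against 77.1%. Median cover there was 5.78% against 1.10%, and none of the 8 reached 50% cover, against 2.74% of all.

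**Figure D2:**
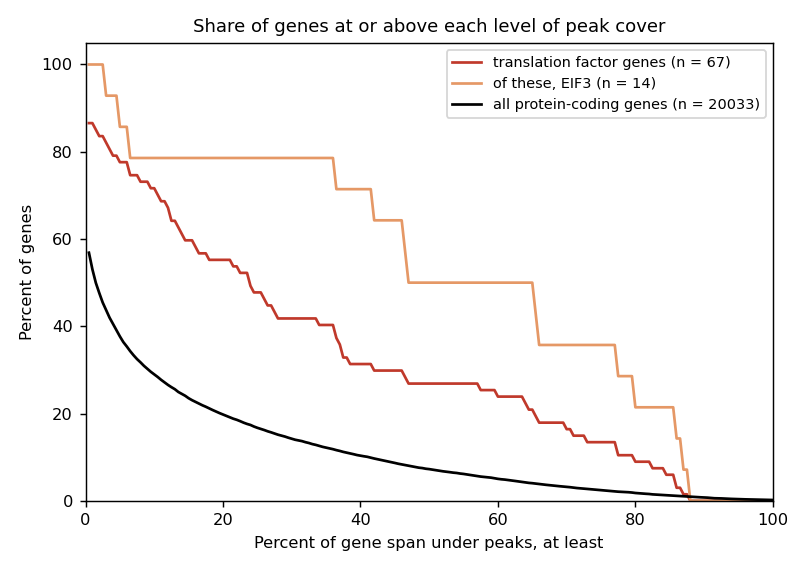
The horizontal axis is a level of peak cover (percent of gene span), and the vertical axis is the percent of genes at or above it. The line of the 67 translation factor genes lies above that of the 20033 protein-coding genes through most of the range, and at 50% cover the EIF3 genes stand at 50%, all translation factor genes at 26.9% and all protein-coding genes at 7.26%.

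Peaks at gene starts were also common, and the promoter sequences are shown here for what they share. A promoter sequence from RefSeq (GRCh38.p14), 250 bases before to 50 after the start, was matched for 54 of the 67 genes. A peak midpoint lay within 1 kb of the listed start in 34 of these 54 (63.0%), against 37.3% of the 15842 protein-coding genes with such a sequence. With only the peaks at or above the median log2 ratio of the list, 11 of 54 genes had one there, against 9.90%. At least 1 base of the promoter lay under a peak in 29 of 54 (53.7%), against 31.2%. The whole promoter lay under a peak in 18 of the 29 (62.1%), against 69.1% of all promoters with a peak. The motif CACGTG, the canonical E-box that MYC family proteins bind and its own reverse complement, occurred in 15 of the 54 promoters (27.8%), against 8.82% of the 15842. The read-through gene shares its promoter with EEF1AKMT4, so that these are 14 of 53 distinct promoters. By group, the motif was in 6 of 15 EIF4 promoters, 4 of 10 EEF, 2 of 8 EIF3, 1 of 10 EIF2 and 2 of 11 others.

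The motif CACGTG was in 7 of the 29 promoters under a peak (24.1%) and in 8 of the 25 without (32.0%), against 11.3% of all promoters under a peak. The motif CCGGAA was in 14 of the 29 (48.3%) and 8 of the 25 (32.0%), against 33.5% of all promoters under a peak and 22.7% of all promoters. CCAAT was in 9 of the 29 (31.0%) and 12 of the 25 (48.0%), against 36.4%. GGGCGG occurred in 43 of the 54 (79.6%) against 58.3%, and TATAAA in 3 (5.56%) against 9.75%, both strands searched for each. Median GC content was 64.3% in the promoters under a peak and 64.3% in those without, against 62.7% over all promoters and 67.3% over all promoters under a peak. A motif match is a run of letters and not a measured binding site.

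The 150 bases before the start are printed for 8 of the genes with the motif in that stretch, 5 whose printed bases lie wholly under a peak and 3 of the cap-binding machinery with none there. Capitals mark CACGTG.
EIF3K (chr19:38619038-38619187, plus strand): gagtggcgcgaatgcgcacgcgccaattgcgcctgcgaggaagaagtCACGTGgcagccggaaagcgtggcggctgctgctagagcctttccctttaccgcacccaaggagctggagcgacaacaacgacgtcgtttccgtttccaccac
EIF4A3 (chr17:80147129-80147278, minus strand): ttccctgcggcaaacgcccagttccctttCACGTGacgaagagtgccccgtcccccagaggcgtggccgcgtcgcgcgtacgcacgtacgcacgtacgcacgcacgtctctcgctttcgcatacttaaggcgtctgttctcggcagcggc
EIF4EBP3 (chr5:140547512-140547661, plus strand): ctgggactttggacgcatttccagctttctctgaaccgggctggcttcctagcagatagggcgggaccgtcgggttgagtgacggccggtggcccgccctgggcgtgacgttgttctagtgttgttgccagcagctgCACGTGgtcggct
EEF2K (chr16:22206128-22206277, plus strand): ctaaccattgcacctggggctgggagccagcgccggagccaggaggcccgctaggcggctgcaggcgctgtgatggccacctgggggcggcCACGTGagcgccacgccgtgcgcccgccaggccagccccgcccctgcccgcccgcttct
EIF1B (chr3:40309557-40309706, plus strand): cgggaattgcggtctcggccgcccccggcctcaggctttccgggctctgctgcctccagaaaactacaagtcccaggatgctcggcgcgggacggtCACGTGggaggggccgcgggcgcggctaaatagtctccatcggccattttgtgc
EIF4E (chr4:98929134-98929283, minus strand): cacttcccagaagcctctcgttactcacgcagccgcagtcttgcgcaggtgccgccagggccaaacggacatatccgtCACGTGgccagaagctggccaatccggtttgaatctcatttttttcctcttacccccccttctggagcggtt
EIF4G1 (chr3:184314456-184314605, plus strand): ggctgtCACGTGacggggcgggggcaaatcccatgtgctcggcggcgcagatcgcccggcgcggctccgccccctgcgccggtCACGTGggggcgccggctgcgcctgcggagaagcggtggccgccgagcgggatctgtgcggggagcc
EIF4B (chr12:53006306-53006455, plus strand): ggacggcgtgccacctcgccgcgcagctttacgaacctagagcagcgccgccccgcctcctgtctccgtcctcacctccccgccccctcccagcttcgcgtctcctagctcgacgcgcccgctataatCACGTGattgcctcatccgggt
By the choice made, each sequence holds the motif, the first 5 lie under peaks and the last 3 do not. EIF4G1 holds the motif at 2 places. The peak at EIF1B ran over the whole stretch (chr3:40308944-40310751, log2 ratio 2.50). At EIF4E the nearest peaks lay on either side, with midpoints 621 bp after and 2479 bp before the start. At EIF4B the nearest were 2903 bp after and 2958 bp before it.

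Of the groups, EIF3 had the highest median cover. All 14 genes had a peak, with a median of 7.5 peaks and median cover of 56.1% of the span, and 7 of the 14 were covered over 50% or more. The 14 include the near-identical copies EIF3C and EIF3CL. Median span was 26.2 kb in EIF3, 23.9 kb in EIF2, 23.6 kb in EIF4, 14.3 kb in EEF and 5.87 kb in the remaining genes. Cover differed between the length classes above, and the ranking of groups was not adjusted for length. Where a cover is given with a number of peaks, here and below, the number counts the peaks that touch the gene span, without those lying wholly in the flanks. EIF3A, the largest subunit, had 11 peaks over 87.5% of its 47.1 kb. EIF3B, a scaffold subunit that binds the small ribosomal subunit, had 87.0% of its span under 4 peaks. The RNA-binding subunit EIF3G had 85.7%, EIF3D, a subunit able to bind the cap, 79.8%, EIF3L 77.3%, EIF3K 65.9% and the WD-repeat subunit EIF3I 65.3%. Next came EIF3J, a loosely attached subunit, with 46.9% under 12 peaks, EIF3C with 46.3% and EIF3M with 41.99%.

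The 3 EIF3 genes with the lowest cover were EIF3F, EIF3E and EIF3H. EIF3F had 1 peak over 6.44% of its span, EIF3E 3 peaks over 4.93% and EIF3H 5 peaks over 3.00%. EIF3F and EIF3H encode the pair of MPN-domain subunits, and EIF3E a PCI-domain subunit. Peak density in these gene windows was 0.408, 0.522 and 0.372 peaks per 10 kb for EIF3F, EIF3E and EIF3H. Their surroundings were sparse as well, with 0.04, 0.04 and 0.05 peaks per 10 kb in the 500 kb on each side. No EIF3 gene had a cover between 6.44% and 36.3%.

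Part of this cover came from single wide peaks. A peak of 5 kb or wider lay over 12 of the 67 genes (17.9%), against 4.15% of all protein-coding genes, and 8 of the 12 were EIF3 genes, with 2 from EIF4 and 1 each from EIF2 and EEF. Of the 16 wide peaks, 15 lay wholly inside the gene. The widest was 19.3 kb long over EIF3B (chr7:2358761-2378046, log2 ratio 4.20). It took up 72.3% of the gene, beginning 4675 bp above its lower end and stopping 2699 bp short of its upper end. A further peak of 4761 bp (log2 ratio 4.35) followed and ran past the gene end. EIF3A held 3 wide peaks of 14.1, 8.31 and 5.94 kb (log2 ratios 3.49, 3.91 and 3.68), and EIF3C 1 of 13.3 kb (3.11). Outside EIF3, the widest were 8.02 kb at EIF4A3, 7.92 kb at EIF4B, 7.01 kb at EIF2S2 and 5.86 kb at EEF1G. The 1 wide peak not wholly inside its gene was that of EIF4A3, with 82.6% of its length in the gene.

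**Figure D3:**
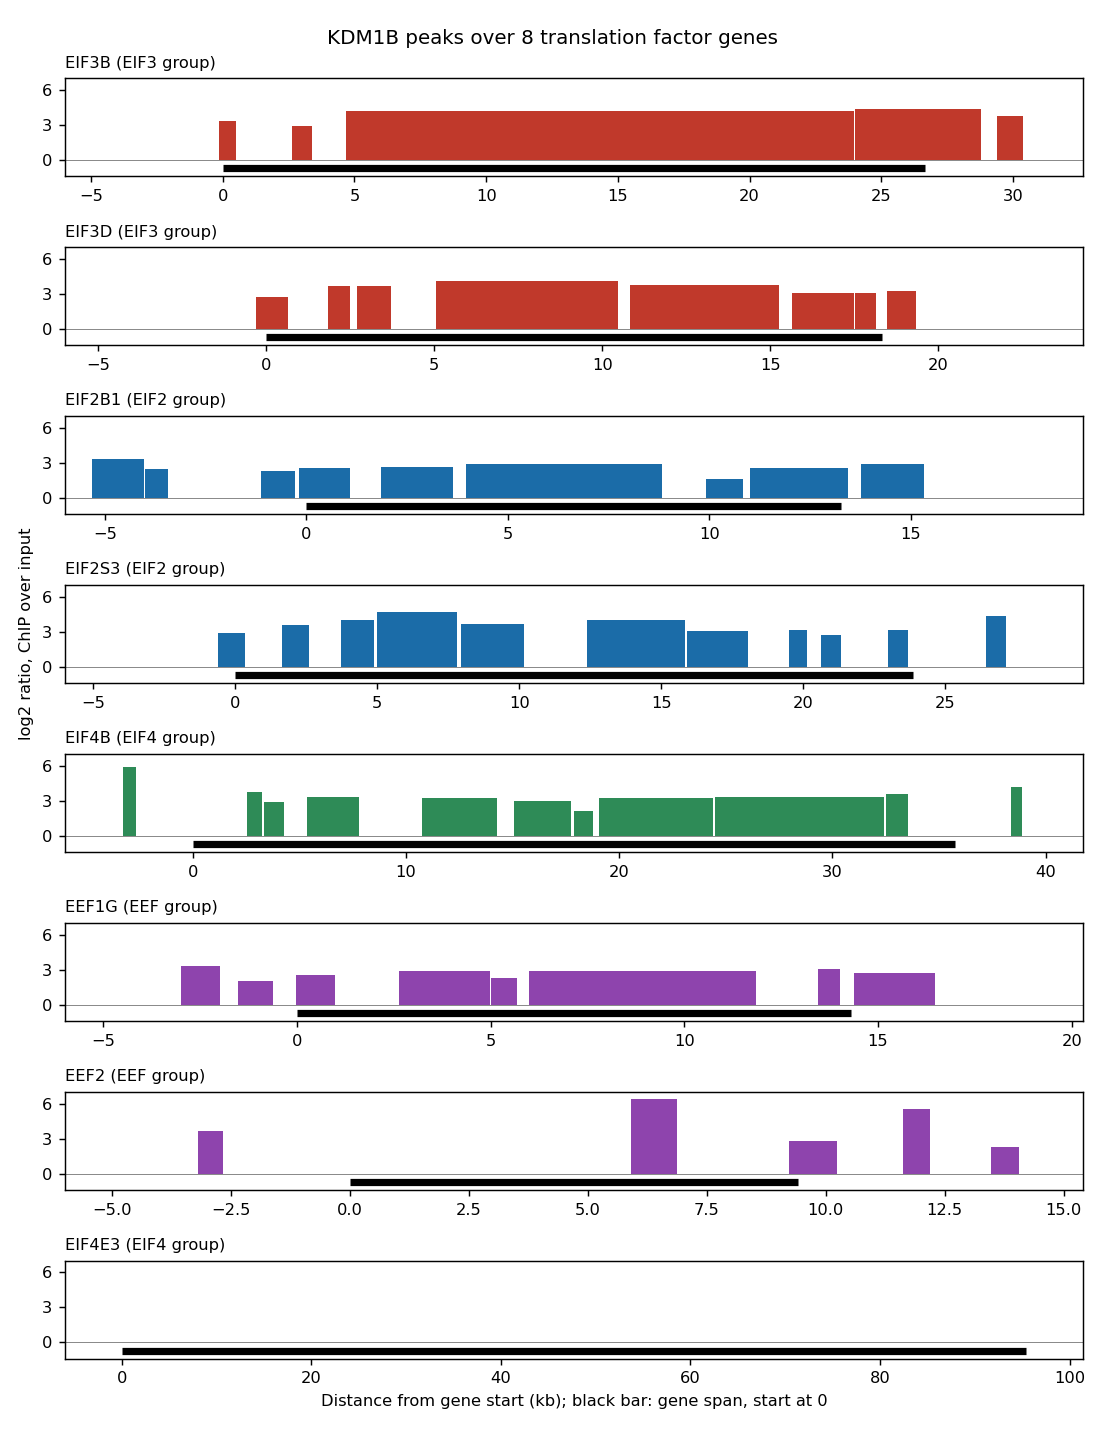
Each panel shows 1 gene, with distance from the gene start in kb on the horizontal axis, the gene span as a black bar, and each peak counted for the gene as a block whose height is its log2 ratio of ChIP over input. Blocks fill most of EIF3B, EIF3D, EIF2B1, EIF2S3, EIF4B and EEF1G, EEF2 holds a short peak of log2 ratio 6.36, and EIF4E3 has none.

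In the EIF3 genes with known strand, cover was highest past the middle of the gene. The mean share of bases under peaks was taken in 10 equal parts of each gene, over the genes whose strand the promoter table gives. In the 8 EIF3 genes it was 18.6% in the first part and 43.5% in the second, reached 74.8% in the seventh and was 36.3% in the last. Over all 54 translation factor genes the first part had 27.7%, the second 20.6%, the seventh 39.8% and the last 20.5%. Over 15438 protein-coding genes of 1 kb or longer the same parts had 13.6%, 9.95%, 13.1% and 12.6%. The kilobase before the start had 30.0% in the translation factor genes against 17.2% over all. It was 42.0% in the EIF1, EIF5 and EIF6 genes, 39.7% in EIF2, 30.7% in EEF, 20.9% in EIF4 and 17.5% in EIF3. Among genes with known strand, EIF3 thus had the lowest cover just before the start and in the first part. It had the highest in the second to the last part. EIF3A, EIF3CL, EIF3E, EIF3G, EIF3H and EIF3L, with no strand given, were left out. Peaks of EIF3A, EIF3G and EIF3L ran across a gene end, so the ranking before the start may not hold for the whole group. The kilobase after the gene end had 55.5% in the 8 EIF3 genes against 11.3% over all protein-coding genes.

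**Figure D4:**
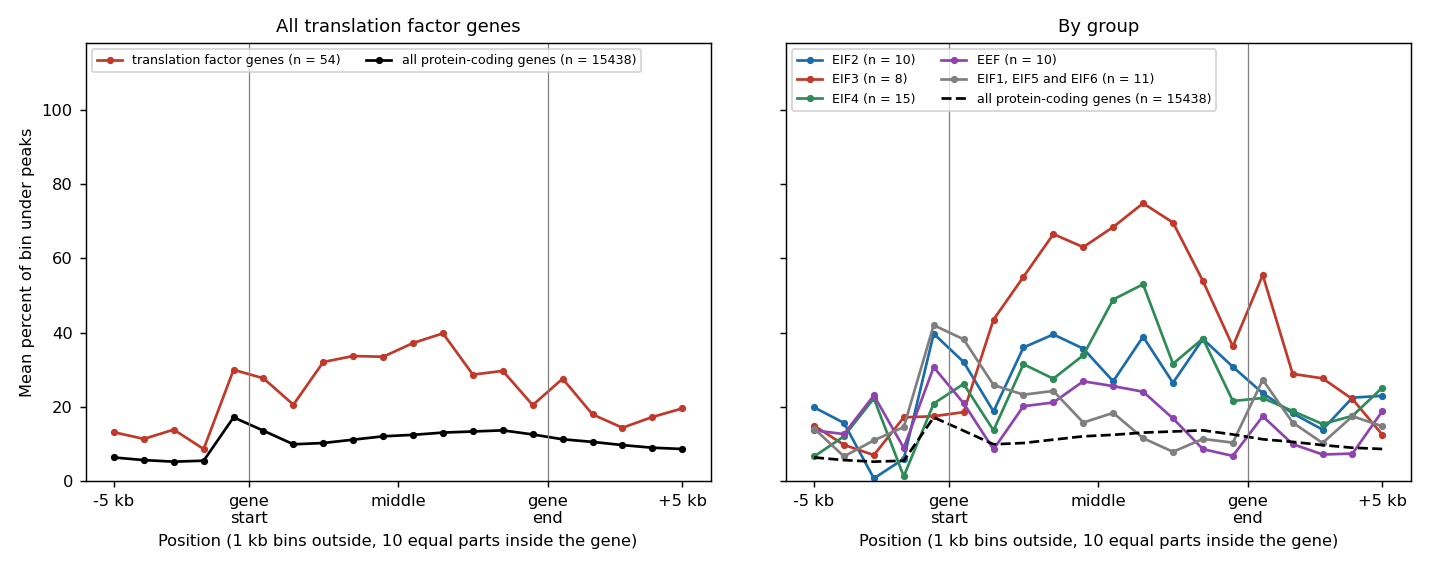
The vertical axis is the mean percent of each bin under peaks, and the horizontal axis runs from 5 kb before the gene start through 10 equal parts of the gene to 5 kb after its end. Left, the 54 translation factor genes with known strand and 15438 protein-coding genes; right, the groups, where EIF3 (8 genes) climbs to 74.8% and the dashed line of all protein-coding genes does not pass 17.2%.

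In the EIF2 group 10 of 11 genes had a peak, with a median of 8 peaks and median cover of 24.1%. The 3 subunits of eIF2 had 63.5% (EIF2S3, the GTP-binding gamma subunit, 10 peaks), 64.4% (EIF2S2, beta, 6 peaks) and 25.8% (EIF2S1, alpha, the subunit phosphorylated in stress, 6 peaks). EIF2S1 lies within the span of another coding gene, GPHN, so its peaks cannot be assigned to either alone. The 5 subunits of eIF2B were uneven. The delta and alpha subunit genes EIF2B4 and EIF2B1 were covered over 86.0 and 82.3%, with 5 peaks each. The catalytic epsilon subunit gene EIF2B5 had 9.30% under 1 peak, EIF2B2 6.45% under 1 and the long gamma subunit gene EIF2B3 3.73% under 7. EIF2B3 held the strongest peak of the group (log2 ratio 5.65, 543 bp wide). EIF2A, which has been linked to initiation without eIF2, had 12 peaks over 24.1%, and EIF2D, a tRNA-delivering factor, 10 over 22.3%.

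In the EIF4 group 14 of 16 genes had a peak, with a median of 5 peaks and median cover of 25.1%. Cover was highest at EIF4A3, the helicase of the exon junction complex, with 77.2%, then at EIF4B, which stimulates the eIF4A helicase, with 71.0% under 9 peaks. The short gene EIF4EBP3 followed with 69.5%; it lies within the span of the read-through gene ANKHD1-EIF4EBP3, so its peaks cannot be assigned to either alone. Of the subunits of the cap-binding complex, the scaffold gene EIF4G1 had 59.9%, the helicase genes EIF4A1 and EIF4A2 36.5 and 26.4%, and the cap-binding protein gene EIF4E 16.2% under 10 peaks. EIF4G3, the longest of the 67 genes at 371 kb, had 33 peaks but 7.83% cover, including the strongest peak of the group (log2 ratio 5.99). EIF4G2, which lacks the eIF4E-binding part of EIF4G1, had 2 peaks over 23.8%. Among the repressors of eIF4E, EIF4EBP1 had 10.9%, EIF4EBP2 12.02%, and EIF4ENIF1, which binds eIF4E and carries it into the nucleus, 14.46% under 11 peaks. EIF4E2, a cap-binding homologue that represses translation, had 37.4%, and EIF4H, a helper of the helicase, 37.3%.

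In the EEF group all 15 genes had a peak, but median cover was 13.2%, lower than in the 3 EIF groups named above. In 3 of them the peak midpoints were in the flanks alone. Without flanks 12 of 15 had one, against 58.0% of all protein-coding genes. The exchange factor subunits EEF1D and EEF1G were covered over 84.4 and 72.9%, and the third, EEF1B2, over 17.7%. EEF1A1, the main eEF1A gene of most cells, had 13.2% under a peak at its start (log2 ratio 3.15). It had 2 more peaks upstream, with ratios of 1.84 and 2.21. EEF1A2, the form known from muscle and neurons, had 15.7%. EEF2 had 12.3% cover but the highest ratio of all 67 genes, a 966 bp peak inside the gene with a log2 ratio of 6.36 (linear 81.9, chr19:3978596-3979562). The EEF2 kinase gene EEF2K had 21 peaks over 23.8%. Of the 5 methyltransferase genes, EEF2KMT had 33.6% and EEF1AKMT2 27.7% under 10 peaks, while EEF1AKMT1 had 3.34%, EEF1AKMT3 1.65% and EEF1AKMT4 0%. The EEF2KMT peaks at chr16:5083769-5085346 and chr16:5086335-5086993 also lay within the gene ALG1, so they cannot be assigned to either alone. EEF1E1, a scaffold of the synthetase complex, had 11.9%, and EEFSEC, the selenocysteine elongation factor, 2 peaks over 0.414% of 273 kb. The single peak counted for EEF1AKMT4 and the read-through gene lay 3673 bp before their start, inside the neighbouring gene ALG3.

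Of the remaining initiation factors, 9 of 11 had a peak, with median cover of 13.7%. EIF6, which keeps the ribosomal subunits apart, had 57.2% and EIF5, which triggers GTP hydrolysis on eIF2, 36.6%. EIF5B, the GTPase of subunit joining, had 17 peaks over 21.3%. EIF1AD had 2 peaks over 27.2%, with log2 ratios of 3.29 and 3.16. The strongest peak counted for it (5.57, 500 bp wide) lay in the flank, 2946 bp before the start. EIF1, which guards start codon choice, had 1 peak 1196 bp before its start and none inside.

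Close copies were set side by side. EIF5A, which carries the modified amino acid hypusine, had 1 peak over 13.7%, EIF5A2 1 over 1.04% at its start, and the intronless copy EIF5AL1 none. Counting flanks as well, EIF2S3 had 11 peaks and its copy EIF2S3B none, and EIF1AX on chromosome X had 4 and EIF1AY on chromosome Y none. The whole list held 32 peaks on chromosome Y and 1100 on chromosome X. Whether the cells carry chromosome Y was not measured here, so the lack of a peak at EIF1AY cannot be read as a lack of binding. EIF1B had 38.4% cover under 1 peak at its start and EIF1 0%. EIF4E1B and EIF4E3 had no peak, while EIF4E had 10 and EIF4E2 8 over the gene. EIF3C and its near-identical neighbour copy EIF3CL had 10 peaks over 46.3% and 9 over 36.3%. The treatment of reads that match both copies was not stated in the labels, so the 2 genes cannot be told apart. The same limit holds for the copies EIF2S3B and EIF5AL1, where the lack of a peak cannot be told apart from reads lost to matching elsewhere. The 5 genes with no peak were EIF1AY, EIF2S3B, EIF4E1B, EIF4E3 and EIF5AL1.

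The peaks at translation factor genes were somewhat wider, with ratios like those of other peaks. The log2 ratios had a median of 3.02 (quartiles 2.62 and 3.46), against 2.99 (2.58 and 3.52) for all 78536 peaks, and their median width was 916 bp against 804 bp. Peaks of 5 kb or wider made up 3.54% of the 452 against 1.42% of all. The strongest peak of each gene had a median of 3.82 in EIF3 genes, 3.80 in EIF4, 3.72 in EIF2 and 3.90 in EEF. It was 3.54 in the EIF1, EIF5 and EIF6 genes and 3.72 over all protein-coding genes with a peak. High ratios need care: 42 of the 452 peaks (9.29%), and the strongest peak of 15 of the 62 genes, EEF2, EIF2B3, EIF4G3 and EIF1AD among them, had a linear ratio that is a whole multiple of 2.64. Such a ratio arises, for example, with a single read in the input. In the whole list 12.4% of peaks have it.

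Peaks were denser at these genes than around them. The gene with 5 kb flanks held more peaks per 10 kb than the 500 kb on each side in 55 of the 67 genes (82.1%), against 46.4% of all protein-coding genes. The medians were 1.96 peaks per 10 kb in the gene windows and 0.770 in the surroundings, against 0.378 and 0.440 over all protein-coding genes. All 14 EIF3 genes were denser than their surroundings, though EIF3B narrowly so by number of peaks, at 1.36 against 1.33. The densest window was that of EIF3G, with 6.05 against 1.01, where 4 of the 9 peaks lay in the neighbouring genes PPAN and P2RY11. EIF4E1B stood the other way, with 0 against 1.21, and EEFSEC had 0.0707 against 0.87.

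**Figure D5:**
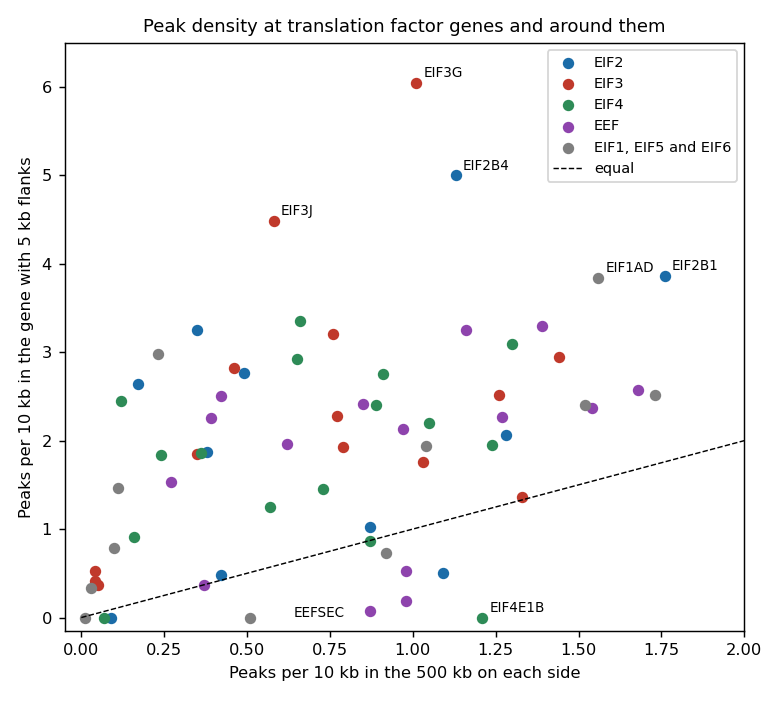
Each point is 1 of the 67 genes, coloured by group, with peaks per 10 kb in the 500 kb on each side on the horizontal axis and peaks per 10 kb in the gene with 5 kb flanks on the vertical axis. Of the 67 points, 55 lie above the dashed line of equal density, with EIF3G highest at 6.05.

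Other genes of protein synthesis and turnover were close to this. Of 31 further translation genes (release, recycling, poly(A)-binding, mitochondrial and modifying factors), 28 (90.3%) had a peak and median cover was 18.9%. Among them the poly(A)-binding protein gene PABPC4 had 92.5% cover, DENR 79.0% and the release factor gene ETF1 54.0%, while DDX3X, GSPT2 and MCTS1, all on chromosome X, had no peak. A peak was found in 89.6% of 77 mitochondrial ribosomal protein genes, 90.0% of 50 proteasome subunit genes and 91.4% of 35 aminoacyl-tRNA synthetase genes. Their median cover was 9.13, 25.9 and 33.2%. The share with a peak is thus near that of the translation factor genes in each of these families. The median cover of the 67 genes, 23.8%, lies below that of the proteasome and synthetase genes. Cover of 50% or more was found in 26.9% of the 67 genes and in 31.4% of synthetase genes, and a peak of 5 kb or wider over 17.9 and 22.9%. Windows denser than their surroundings made up 82.1% in the 67 genes. The share was 83.9% in the further translation genes and 77.9, 86 and 82.9% in the mitochondrial ribosomal, proteasome and synthetase genes. A peak within 1 kb of a listed start was found in 63% of translation factor genes, and in 62.1, 58, 56.8 and 53.6% of these sets in turn. None of these differences was tested.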

How the data were processed

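Per the submitters' processing notes, the tools were Trim Galore 0.4.5 and Bowtie2 2.2.9 and the build was hg38, for 1 ChIP and 1 input library. For the peak caller and its thresholds, nothing is given in the sources used here. The deposited list has 78536 peaks with chromosome, start, end and a value taken as the log2 ratio of ChIP over input made by the authors. This scale was settled from the values: 99.9% of the linear ratios equal 2.64 times a ratio of whole numbers (denominators up to 399, tolerance 1e-06). Ratios were compared within this list alone. Coordinates are as deposited. Depth is unknown.

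Genes and starts came from RefSeq tables of GRCh38.p14. A peak was counted by its midpoint, and cover is the share of the gene span under any peak. Where a gene has several listed starts, the outermost was used. Genes were named by a rule (most peaks, highest cover, highest ratio, no peak, paralogs; 49 genes), and others described with their complex. The genes and lists were chosen with earlier results of these data known. Interval counting was checked on simulated data. Python 3.11.15, pandas 2.3.3, SciPy 1.17.1 and matplotlib 3.10.9 were used.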

Additional observations from a re-analysis of the deposited data

How the results depend on the processing

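No paired analysis was possible because each group held 1 library. The count of translation factor genes with a peak stayed between 57 and 63 under flanks of 0, 1 and 10 kb, any overlap of 1 bp, peaks of 600 bp or wider, joining of peaks within 1 kb, and the peaks at or above the median log2 ratio, while the share of all protein-coding genes ran from 55.5 to 71.0%. The median number of peaks per gene moved to 4 without flanks, 8 with 10 kb, 3 after joining and 2 with the stronger peaks, against 1, 2, 1 and 1 over all protein-coding genes. With the stronger peaks median cover was 8.16%, against 0% over all protein-coding genes. Genes with a peak within 1 kb of the start then numbered 11 of 54, against 9.90% of all. The other settings gave median cover of 21.1 to 26.1%. Without peaks at whole multiples of the step, and without the read-through gene and close copies (both chosen after seeing the data), 61 of 67 and 60 of 63 genes had a peak. The shares of all protein-coding genes under these settings were 63.5 and 67.3%. Input counts are unknown, so high ratios on few reads cannot be told apart from strong binding.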
